A study of Mus musculus with 11 samples.

Results

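Genes that handle fatty acids were followed across 3 postnatal ages in muscle cells sorted for green fluorescent protein (GFP). The set was chosen by gene symbol and held 10 genes: Cd36, Fabp3, Fabp4, Lpl, Scd1, Angptl4, Cpt1b, Acsl1, Pdk4 and Car3. Every probe set that carried 1 of these symbols alone was taken, which gave 20 of the 45037 probe sets tested and 8 of the 10 genes. Cpt1b stood only on a probe set shared with another symbol, and Acsl1 was not analysed here. The measured members therefore cover uptake, intracellular binding, desaturation and the fuel switch at pyruvate dehydrogenase, and none of them is an enzyme of β-oxidation itself.

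All 11 arrays came from C57BL/6J mice of the genotype Pax3GFP/+, in which GFP is made from the locus of Pax3, a transcription factor of the muscle lineage. Every group carried this reporter allele, so no array represents a wild-type Pax3 locus. Muscle was digested, propidium iodide marked dead cells for removal, and the gate was the GFP signal alone. The P1 arrays (postnatal day 1, n = 4) and the P12 arrays (day 12, n = 4) were labelled as trunk muscle with proliferating satellite cells, the stem cells of skeletal muscle. The P28 arrays (day 28, n = 3) came from abdominal, pectoral and intercostal muscle, labelled as holding satellite cells. The number of animals per array was not given, so p-values measure the spread between these samples.

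Fatty acids reach muscle mainly as triglyceride in lipoproteins. Lipoprotein lipase on the capillary wall frees them, the scavenger receptor CD36 helps to carry them across membranes, and small fatty acid binding proteins hold them in the cytoplasm. Inside the cell they are stored as triglyceride in droplets or burned in mitochondria, and pyruvate dehydrogenase kinases turn fuel use from glucose towards fat. Several of these genes are also known from fat cells, from capillary endothelium and from slow muscle fibres.

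The RefSeq promoter table (GRCm38.p6) held 3 of the 8 measured genes, Cd36, Fabp3 and Pdk4, and the 250 bases before each start are shown because these genes stand for uptake, binding and the fuel switch. Capitals mark matches, on either strand, to the nuclear receptor half-site AGGTCA, the GC box GGGCGG and the E-box CANNTG, where N is any base.
Cd36: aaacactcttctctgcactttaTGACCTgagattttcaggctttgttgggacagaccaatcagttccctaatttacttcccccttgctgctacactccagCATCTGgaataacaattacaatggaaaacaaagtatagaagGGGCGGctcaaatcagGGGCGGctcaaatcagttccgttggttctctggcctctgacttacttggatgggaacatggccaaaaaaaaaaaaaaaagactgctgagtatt
Fabp3: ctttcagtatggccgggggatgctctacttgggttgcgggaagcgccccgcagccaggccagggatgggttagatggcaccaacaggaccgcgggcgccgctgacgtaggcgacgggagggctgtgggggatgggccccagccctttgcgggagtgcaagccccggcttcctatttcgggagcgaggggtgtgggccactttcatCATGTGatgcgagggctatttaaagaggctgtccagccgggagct
Pdk4: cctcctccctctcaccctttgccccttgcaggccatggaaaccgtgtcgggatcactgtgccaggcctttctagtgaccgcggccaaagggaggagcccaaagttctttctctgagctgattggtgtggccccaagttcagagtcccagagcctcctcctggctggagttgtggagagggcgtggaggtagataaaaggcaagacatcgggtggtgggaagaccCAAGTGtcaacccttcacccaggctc

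The Cd36 window lies on the minus strand at chr5:17835897-17836146, the Fabp3 window on the plus strand at chr4:130308488-130308737 and the Pdk4 window on the minus strand at chr6:5496279-5496528. Cd36 held 1 half-site, read as TGACCT from base 228 to base 223 before the start, 2 GC boxes and 1 E-box. Fabp3 and Pdk4 each held 1 E-box, from base 45 to 40 and from base 26 to 21 before the start, and 0 of the other motifs, the TATA box TATAAA included. Among 32851 promoters of the same length, 14.0% held the half-site, 32.7% the GC box, 66.2% the E-box and 12.4% the TATA box. GC content was 43.2% for Cd36, 64.8% for Fabp3 and 58.8% for Pdk4. These matches describe the letters of the windows only.

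All values are log2 RMA values, the authors' normalized array signal, in which 1 unit is a doubling. The median of an array was 5.50 to 5.58, and the background level, read from bacterial Trp controls, was 3.36 to 3.64. A probe set is called dim below where no age mean reached 5.54, the median over all probe sets. Satellite cell markers were present at every age, with Pax7 at 10.75, 10.78 and 10.72 and Pax3 at 8.29, 8.60 and 8.48 at P1, P12 and P28. For P28 the age, the muscles and another suffix of the internal sample names coincide and cannot be told apart. The Gapdh 3' minus 5' control difference, a measure of RNA integrity and amplification, was 2.18 ± 0.60 (SD, n = 4) at P1, 2.10 ± 0.88 (n = 4) at P12 and 0.90 ± 0.10 (n = 3) at P28. At both young ages it fell into 2 sets of arrays. Replicates 1 and 2 read 2.59 and 2.79 at P1 and 2.64 and 3.05 at P12. Replicates 3 and 4 read 1.69 and 1.62 at P1 and 1.32 and 1.38 at P12. The lowest value of an array was -0.78 to 0.48 at P1 and P12 and 1.65 to 2.09 at P28.

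From P12 to P28, 7 of the 8 genes rose on their brightest probe set and only Lpl did not pass the test. The increases ran from 1.84-fold for Pdk4 to 13.0-fold for Scd1. From P1 to P12 only Pdk4 rose, and with the replicate number as a block both Lpl probe sets rose too (limma, adjusted p = 0.0334 and 0.0188). Changes were tested with limma, p-values were adjusted over all 45037 probe sets, and "rose" or "fell" is written where the adjusted p was under 0.05. The comparisons share arrays, so they are given side by side and not as independent evidence.

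**Figure D1:**
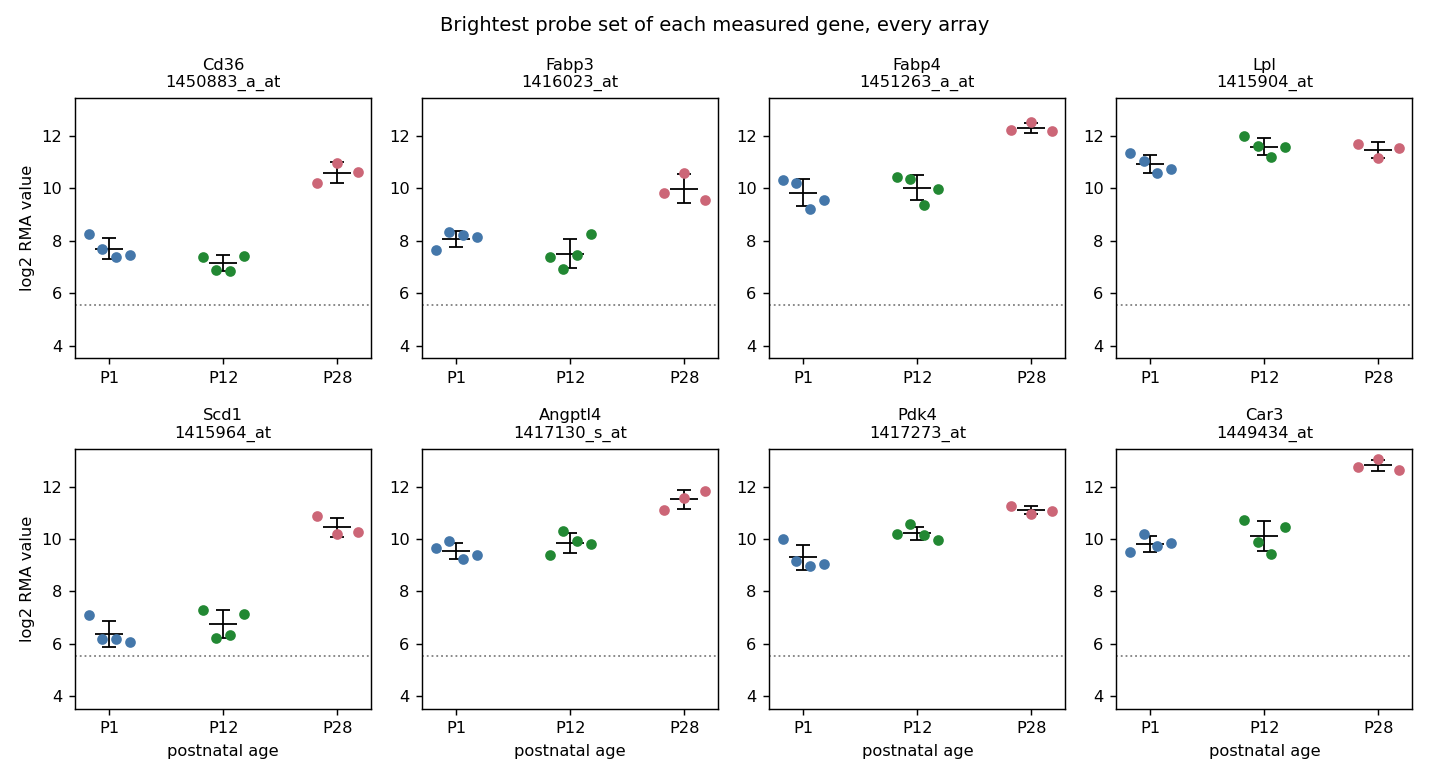
Log2 RMA values (vertical axis) of the brightest probe set of each measured gene on every array at P1 (n = 4), P12 (n = 4) and P28 (n = 3), with black bars for the mean and SD and a dotted line at 5.54, the median level of all probe sets. All P28 arrays lie above all P1 and P12 arrays for 7 genes, while the Lpl arrays of the 3 ages overlap.

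Lpl encodes lipoprotein lipase. Its brighter probe set 1415904_at read 11.37, 11.06, 10.60 and 10.73 on the P1 arrays, 12.00, 11.60, 11.18 and 11.60 on the P12 arrays and 11.71, 11.15 and 11.56 on the P28 arrays. The ages overlapped, with P1 at the lower end. The change was 0.66 ± 0.20 (SE) from P1 to P12 (limma, adjusted p = 0.0777) and -0.13 ± 0.21 from P12 to P28 (adjusted p = 0.707). On the second probe set, 1431056_a_at, the P1 arrays read 7.45, 7.05, 7.34 and 7.23, the P12 arrays 8.07, 7.52, 7.96 and 8.64, and the P28 arrays 8.70, 8.10 and 8.83. There every P12 and P28 array lay above every P1 array, and P12 and P28 overlapped. It changed by 0.78 ± 0.21 from P1 to P12 (adjusted p = 0.0523), and its rise of 1.27 ± 0.23 from P1 to P28 passed (adjusted p = 0.000743). With the replicate number as a block, both Lpl probe sets passed from P1 to P12, at adjusted p = 0.0334 and 0.0188, and the second also from P12 to P28 (0.58, adjusted p = 0.0275). Both also passed from P1 to P12 with replicates 1 and 2 against 3 and 4 as a term (adjusted p = 0.0129 and 0.0218). With the Gapdh 3' minus 5' difference as a covariate they passed at adjusted p = 0.0272 and 0.0326. Without P1 replicate 1 or without P12 replicate 3 the first probe set passed from P1 to P12 (adjusted p = 0.0348 and 0.040), as did the second without P12 replicate 2 or P28 replicate 2 (0.0195 and 0.0374). The moderated F test over the 3 ages passed for both (adjusted p = 0.0379 and 0.00188). From P1 to P28 the brighter probe set changed by 0.53 ± 0.21 (adjusted p = 0.0682). It passed without P1 replicate 1 (adjusted p = 0.0232), without P28 replicate 2 (0.0379) or with the replicate block (0.0417). It also passed with array weights (0.027), with median centring (0.0423) and with the Gapdh 3' minus 5' covariate (0.93, adjusted p = 0.0135). The second passed from P12 to P28 without P12 replicate 4 (0.69, adjusted p = 0.0214) or P28 replicate 2 (0.71, adjusted p = 0.0456).

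Angptl4 encodes a secreted inhibitor of lipoprotein lipase. Probe set 1417130_s_at read 9.64, 9.94, 9.23 and 9.39 at P1, 9.40, 10.29, 9.93 and 9.80 at P12, and 11.13, 11.58 and 11.83 at P28. The P1 and P12 arrays overlapped, and the P28 arrays lay above all of them. It rose by 1.66 ± 0.22, or 3.16-fold, from P12 to P28 (limma, adjusted p = 0.000107), after 0.30 ± 0.21 from P1 to P12 (adjusted p = 0.493). The other probe set, 1453410_at, went the other way, with 5.90, 6.67, 6.55 and 6.48 at P1, 6.83, 7.55, 6.82 and 6.42 at P12, and 5.76, 6.22 and 5.80 at P28. Its P28 arrays lay below every P12 array and overlapped P1. It fell by 0.98 ± 0.24 from P12 to P28 (adjusted p = 0.00764), and with the Gapdh 3' minus 5' difference as a covariate the fall was 0.69 and no longer passed (adjusted p = 0.131). From P1 to P28 it changed by -0.47 ± 0.24 (adjusted p = 0.145) and passed without P1 replicate 1 (-0.64, adjusted p = 0.0478) or with the replicate block (-0.54, adjusted p = 0.0409). The Angptl4 probe sets thus disagree in direction, and the gap between them was 3.15 at P1, 2.95 at P12 and 5.59 at P28.

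Cd36 encodes the fatty acid receptor whose promoter is printed above. Probe set 1450883_a_at read 8.26, 7.70, 7.37 and 7.47 at P1, 7.39, 6.89, 6.86 and 7.42 at P12, and 10.19, 10.97 and 10.64 at P28. Every P28 array stood well above the rest, and P1 and P12 overlapped. The P28 mean was 10.60 ± 0.39 (SD, n = 3) against 7.14 ± 0.30 (n = 4) at P12, an increase of 3.46 ± 0.23 (SE) or 11.0-fold (limma, adjusted p = 3.46e-07). From P1 to P12 it changed by -0.56 ± 0.22, which did not pass (adjusted p = 0.173). The other Cd36 probe sets rose too from P12 to P28, 1423166_at by 2.95 ± 0.24 and 1450884_at by 1.46 ± 0.20. Leaving out any 1 array kept the change of 1450883_a_at between 3.28 and 3.67.

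Fabp3, the heart-type fatty acid binding protein of muscle, followed the same order of ages. Probe set 1416023_at read 7.64, 8.32, 8.23 and 8.14 at P1, 7.39, 6.93, 7.47 and 8.26 at P12, and 9.82, 10.60 and 9.57 at P28. P12 replicate 4 reached the P1 range, the other P12 arrays lay below it, and P28 lay above both ages. It rose by 2.49 ± 0.29, or 5.60-fold, from P12 to P28 (limma, adjusted p = 3.47e-05). The change from P1 to P12 was -0.57 ± 0.27 (adjusted p = 0.28). The dim probe set 1444844_at stayed between 4.64 and 5.49 on all arrays and differed by 0.10 ± 0.17 between P28 and P12 (adjusted p = 0.699).

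Fabp4 encodes the fatty acid binding protein best known from fat cells, which capillary endothelium and macrophages also make. Probe set 1451263_a_at read 10.32, 10.22, 9.23 and 9.57 at P1, 10.42, 10.35, 9.36 and 9.995 at P12, and 12.23, 12.55 and 12.19 at P28. At both younger ages replicates 1 and 2 were the highest, and P28 lay above all. It rose by 2.29 ± 0.28, or 4.89-fold, from P12 to P28 (limma, adjusted p = 4.78e-05). Probe set 1417023_a_at read 9.20, 8.88, 8.62 and 8.76 at P1, 8.81, 8.79, 8.87 and 9.69 at P12, and 11.88, 12.53 and 12.13 at P28. P12 replicate 4 stood above the other P12 arrays, and P28 above all. Its increase from P12 was 3.14 ± 0.23, or 8.83-fold (adjusted p = 5.44e-07). The remaining probe sets were much dimmer: 1425809_at ran from 4.10 to 6.42 and 1424155_at from 3.52 to 5.33, and neither passed from P12 to P28 (0.44 ± 0.35 and 0.50 ± 0.33, adjusted p = 0.385 and 0.286). From P1 to P28, 1425809_at rose by 1.16 ± 0.35 (adjusted p = 0.0194), a call lost without P1 replicate 2 (adjusted p = 0.0583), P1 replicate 3 (0.0584) or P28 replicate 2 (0.0979). Without P1 replicate 1 it also passed from P1 to P12 (1.11, adjusted p = 0.0131), and 1424155_at passed from P1 to P28 (0.87, adjusted p = 0.0114).

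Scd1 encodes stearoyl-CoA desaturase, which makes monounsaturated fatty acids for storage. Probe set 1415964_at read 7.10, 6.18, 6.17 and 6.07 at P1, 7.29, 6.24, 6.33 and 7.14 at P12, and 10.87, 10.20 and 10.29 at P28. P1 replicate 1 and P12 replicates 1 and 4 lay above the other young arrays, and P28 lay far above all. It rose by 3.70 ± 0.30, or 13.0-fold, from P12 to P28 (limma, adjusted p = 1.33e-06). Probe set 1415965_at read 4.67, 4.66, 4.74 and 4.48 at P1, 4.96, 4.78, 4.69 and 5.66 at P12, and 9.20, 8.84 and 8.72 at P28. All but 1 of its P1 and P12 arrays lay below 5.54, and the exception was P12 replicate 4. The increase was 3.90 ± 0.20, or 14.9-fold (adjusted p = 5.08e-08). Neither probe set passed from P1 to P12 (0.37 ± 0.27 and 0.39 ± 0.19, adjusted p = 0.533 and 0.292).

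Pdk4, pyruvate dehydrogenase kinase 4, phosphorylates and so switches off pyruvate dehydrogenase. Its only probe set, 1417273_at, read 10.01, 9.18, 8.98 and 9.05 at P1, 10.20, 10.57, 10.15 and 9.98 at P12, and 11.28, 10.98 and 11.07 at P28. P1 replicate 1 lay just inside the P12 range, the other P1 arrays below it, and P28 above all. It was the member that passed in both steps, by 0.92 ± 0.20 from P1 to P12 (limma, adjusted p = 0.0214) and by 0.88 ± 0.22 from P12 to P28 (adjusted p = 0.00817). The first step missed the threshold when 1 of 5 arrays was left out: P1 replicate 2 (adjusted p = 0.0567), P1 replicate 3 (0.0715), P1 replicate 4 (0.0735), P12 replicate 1 (0.0554) or P12 replicate 2 (0.0504). The size of that step stayed between 0.81 and 1.15 over the 11 fits with 1 array left out. It was 0.79 within replicates 1 and 2 (adjusted p = 0.292) and 1.05 within replicates 3 and 4 (adjusted p = 0.0101), which lay apart from each other at both young ages.

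Car3, carbonic anhydrase 3, is abundant in slow muscle fibres and in fat cells and is not itself an enzyme of lipid metabolism. Probe set 1449434_at read 9.49, 10.21, 9.73 and 9.85 at P1, 10.72, 9.90, 9.45 and 10.45 at P12, and 12.77, 13.06 and 12.63 at P28. P12 replicates 1 and 4 lay above the P1 arrays, and P28 above all. It rose by 2.69 ± 0.26, or 6.46-fold, from P12 to P28 (limma, adjusted p = 6.38e-06). Probe set 1460256_at read 6.13, 7.01, 7.24 and 7.58 at P1, 7.55, 6.56, 7.12 and 8.32 at P12, and 11.01, 11.96 and 11.16 at P28. Again P28 lay above all, and P12 replicate 4 was the highest young array. The increase was 3.99 ± 0.39, or 15.9-fold (adjusted p = 7.26e-06). The dim probe sets 1453588_at and 1430584_s_at stayed between 3.50 and 4.17 on all arrays and passed in no comparison.

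Over all 20 probe sets, 1 rose and 0 fell from P1 to P12, where 3.25% of all probe sets rose and 1.59% fell, and 3 rose with the replicate block. By gene, on the brightest probe set, 1 of 8 rose and 0 fell, against 3.94% and 1.85% of 18193 genes. From P12 to P28, 12 of the 20 rose and 1 fell, against 13.5% and 15.9% of all probe sets, and 7 of 8 genes rose and 0 fell, against 15.5% and 15.4%. From P1 to P28, 14 rose and 0 fell, against 17.6% and 17.4%, and again 7 of 8 genes rose and 0 fell, against 19.9% and 16.3%. The median change of the 20 was 0.25, 1.56 and 1.86 in these comparisons, while over all probe sets it was 0.01, -0.05 and -0.05. Because the members were chosen with earlier results of these data known, these shares and medians are a description and not a test. For P1 to P28 the largest increases were those of Car3 1460256_at (4.39, 20.9-fold), Scd1 1415965_at (4.29, 19.5-fold) and Scd1 1415964_at (4.07, 16.9-fold).

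**Figure D2:**
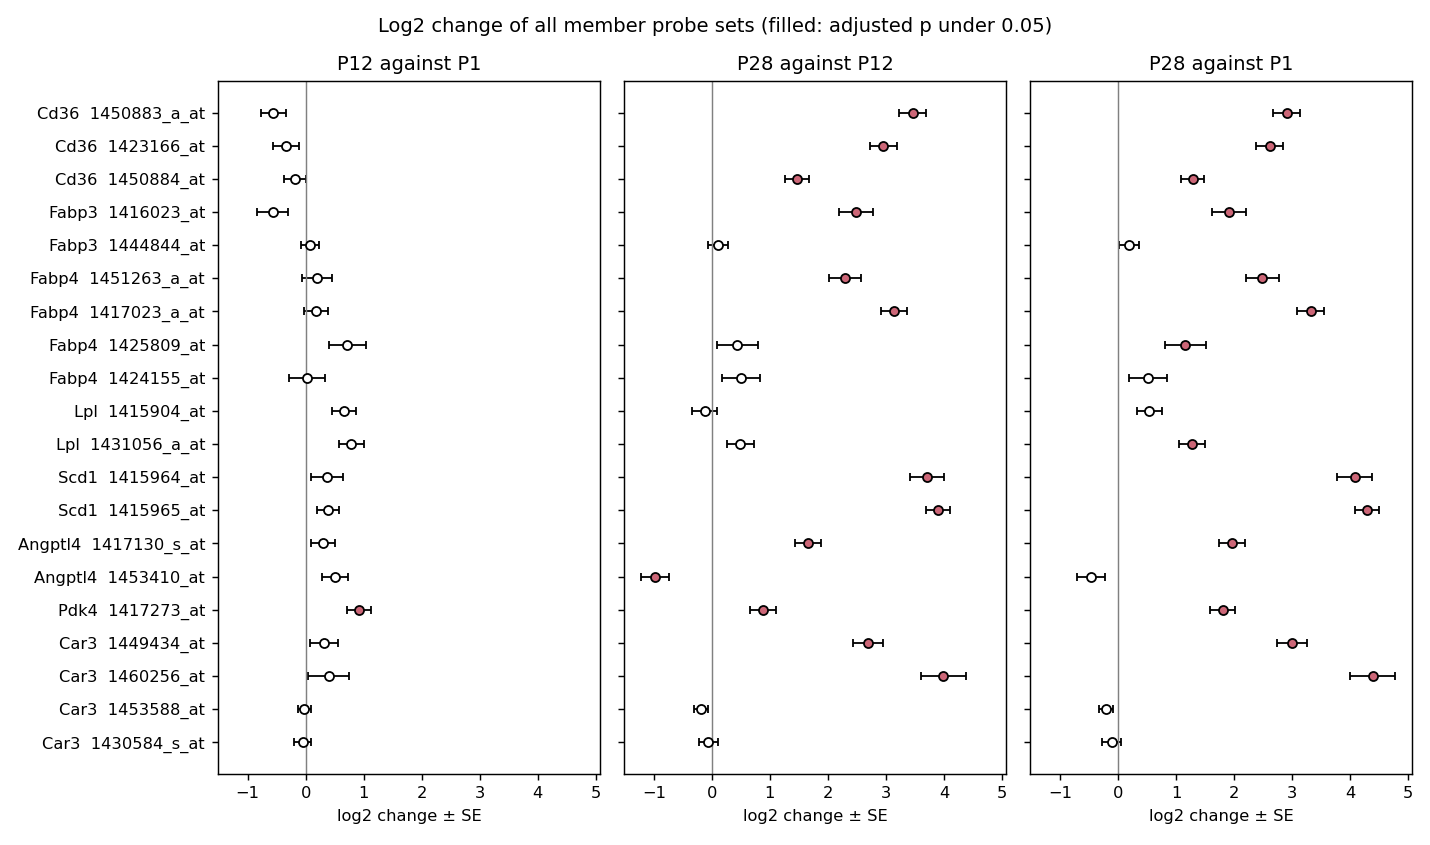
Log2 change (horizontal axis) ± SE of all 20 member probe sets in the 3 comparisons, with filled points where the adjusted p was under 0.05. From P1 to P12 only Pdk4 is filled, and from P12 to P28 12 probe sets lie filled on the right and Angptl4 1453410_at on the left. The fit shown is without pairing, and with the replicate block both Lpl probe sets also passed from P1 to P12.

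Within the P28 group the members moved in 2 directions. P28 replicate 2 was the highest of its age for Cd36, Fabp3, Fabp4 and Car3 on their brightest probe sets, and the lowest for Lpl, Scd1 and Pdk4. Without that array the increase from P12 was 3.28 for Cd36, 2.18 for Fabp3, 2.18 for Fabp4, 2.57 for Car3, 3.83 for Scd1 and 0.95 for Pdk4, and all of these still passed. Within P12, replicate 4 was the highest array for Cd36 1450883_a_at, Fabp3 1416023_at, Fabp4 1417023_a_at and Scd1 1415965_at. On the brightest probe sets of Fabp4 and Scd1, replicate 1 was the highest instead, at 10.42 and 7.29 against 9.995 and 7.14 on replicate 4. With the Gapdh 3' minus 5' difference as a covariate the increases from P12 to P28 were 3.60 for Cd36, 2.06 for Fabp3, 2.97 for Fabp4, 3.83 for Scd1, 1.87 for Angptl4, 1.26 for Pdk4 and 2.89 for Car3, each still past the threshold. That difference was 0.79 to 0.99 at P28 and 1.32 to 3.05 on the younger arrays. As these ranges do not overlap, the difference and the age cannot be told apart by this fit.

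Genes whose arrays followed each member most closely were found among 10831 genes by the root mean square difference of values centred on their own mean over the 11 arrays. Where a member has a large P28 step, this measure mostly weighs the size of that step. It does not show that genes varied together within an age. For Cd36 they were Pde4dip (0.27), Adssl1 (0.31) and Myh7 (0.31), for Fabp3 Csrp3 (0.29), Myl1 (0.29) and Hjv (0.32), and for Car3 Myl2 (0.16), Mlf1 (0.31) and Lgals3bp (0.31). For Fabp4 they were Gpx3 (0.24), Rbpms (0.27) and Klf4 (0.27), and for Scd1 Cd200 (0.22), Slc39a14 (0.23) and Tcim (0.33). The nearest to Angptl4 were Mafk, Dusp5 and Birc3 (0.23 each), to Pdk4 Tnfaip3 (0.16), Ifrd1 (0.18) and Bag3 (0.19), and to Lpl Nepro (0.13), Elovl5 (0.16) and Ccnt1 (0.16). Myh7, the slow myosin heavy chain, is 1 of the myofibre markers used below.

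The other genes of lipid handling were read from 7 lists with 93 genes, 87 of them measured. From P1 to P12, 9 of the 87 rose and 0 fell, against 3.94% and 1.85% of all genes. Leaving out 1 array gave 3 to 11 that rose, the fewest without P1 replicate 4. It was 4 when P1 replicate 3 was left out, 4 when P12 replicate 1 was, and 5 when P12 replicate 4 was. Within replicates 1 and 2 alone the number was 0, where 137 of all probe sets rose, and within replicates 3 and 4 it was 10. With the other settings over all these arrays it ran from 7, with 3 that fell, after a further quantile normalization to 14, with 3 that fell, when replicates 1 and 2 against 3 and 4 were a term. From P12 to P28, 29 rose and 5 fell, against 15.5% and 15.4% of all genes. When 1 array was left out, 26 to 32 rose and 3 to 7 fell. With the 3' minus 5' covariate 25 rose and 3 fell, and with the replicate block 31 rose and 6 fell. The median change of the 87 genes was 0.24 from P12 to P28, beside 2.39 for the brightest probe sets of the 8 members. Members and lists were chosen with earlier results of these data known, so the 2 medians describe and do not test a difference.

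Among the 7 lists, storage had the highest share of increases from P12 to P28. Of 16 genes of triglyceride storage and lipolysis, 11 rose and 1 fell from P12 to P28, against 15.5% and 15.4% of all genes. With the 3' minus 5' covariate the calls of G0s2 and Fitm1 in that step were lost (limma, adjusted p = 0.0788 and 0.535). Lpin1, a phosphatidate phosphatase of triglyceride synthesis, rose by 1.37 ± 0.24, the monoacylglycerol lipase Mgll by 1.35 ± 0.18 and the triglyceride lipase Pnpla2 by 1.26 ± 0.20 (limma, adjusted p = 0.000817, 0.000109 and 0.000311). Plin5, a droplet protein of oxidative tissue, fell by 1.53 ± 0.27 (adjusted p = 0.000736), from a P12 range of 8.41 to 9.71 to a P28 range of 7.05 to 7.89. Its relative Plin2, the general coat protein of lipid droplets, rose by 0.99 ± 0.13 (adjusted p = 9.2e-05). Mgll and the lipolysis inhibitor G0s2 also rose from P1 to P12, by 0.79 ± 0.17 and 0.76 ± 0.14 (adjusted p = 0.018 and 0.00731). The Mgll call of that step was lost without P1 replicate 3, P1 replicate 4 or P12 replicate 1.

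Of 9 uptake and lipoprotein genes, 2 rose and 1 fell from P12 to P28, near the 15.5% and 15.4% of all genes. Gpihbp1, the endothelial anchor of lipoprotein lipase, rose by 2.56 ± 0.24 (limma, adjusted p = 4.85e-06), from a P12 range of 5.77 to 6.84 to 8.42 to 9.38 at P28. Vldlr, the very low density lipoprotein receptor, rose by 1.74 ± 0.22 (adjusted p = 6.32e-05). Fabp5, the epidermal binding protein, fell by 1.16 ± 0.18 (adjusted p = 0.000258), against the direction of Fabp3 and Fabp4. The fatty acid transporter Slc27a1 differed by 0.10 ± 0.18 (adjusted p = 0.723).

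Of 8 activation genes, 3 rose and 1 fell from P12 to P28, a step where 15.5% of all genes rose and 15.4% fell. The acyl-CoA and acetyl-CoA synthetases Acss2, Acss1 and Acsl5 rose by 1.20 ± 0.15, 1.11 ± 0.34 and 0.99 ± 0.14 (limma, adjusted p = 7.28e-05, 0.0263 and 0.000123), and Acsl3 fell by 0.71 ± 0.22 (adjusted p = 0.0252). Acss1 missed the threshold without P12 replicate 3 or P28 replicate 1. Acsl3 missed it without P12 replicate 1, P12 replicate 2 or P28 replicate 1, and with the 3' minus 5' covariate (adjusted p = 0.257). Of 10 genes of desaturation and elongation other than Scd1, 0 rose and the elongase Elovl6 fell by 0.74 ± 0.14 (adjusted p = 0.00154). Median centring, array weights, the replicate block or leaving out P12 replicate 4 gave 1 increase in that list, Elovl1, and a further quantile normalization did so too.

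Of 22 genes of mitochondrial fatty acid oxidation, 6 rose and 0 fell from P12 to P28, against 15.5% and 15.4% of all genes, with a median change of 0.25. Acadm, the medium-chain acyl-CoA dehydrogenase, rose by 0.93 ± 0.19, Ucp3, the uncoupling protein of muscle, by 0.84 ± 0.18 and the trifunctional protein subunit Hadha by 0.84 ± 0.26 (limma, adjusted p = 0.00268, 0.00293 and 0.0256). The Hadha call was lost without P12 replicate 1, P28 replicate 2 or P28 replicate 3, and with the 3' minus 5' covariate (adjusted p = 0.305). The others were Crat, Acaa2 and Acadvl, which rose by 0.77, 0.76 and 0.54. Neither carnitine palmitoyltransferase measured here passed: Cpt1a differed by 0.46 ± 0.22 (adjusted p = 0.126) and Cpt2 by 0.03 ± 0.15 (adjusted p = 0.92). Cpt1a passed without P28 replicate 3 (0.72, adjusted p = 0.0202) or with the replicate block (0.48, adjusted p = 0.0245). With that block the count was 7 that rose and 1 that fell, the dehydrogenase Hadh (-0.41, adjusted p = 0.048), which without it differed by -0.33 ± 0.18 (adjusted p = 0.202).

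Of 10 genes around pyruvate dehydrogenase other than Pdk4, 3 rose and 0 fell from P12 to P28, against 15.5% and 15.4% of all genes. The mitochondrial pyruvate carrier subunit Mpc1 rose by 1.35 ± 0.21, the kinase Pdk2 by 1.15 ± 0.26 and the phosphatase Pdp1, which opposes the kinases, by 0.55 ± 0.16 (limma, adjusted p = 0.000345, 0.00418 and 0.0178). Pdp1 did not pass without P28 replicate 3 (adjusted p = 0.0984) or with the 3' minus 5' covariate (0.0641). Pdp1 and Mpc1 also rose from P1 to P12, by 1.00 ± 0.15 and 0.89 ± 0.20 (adjusted p = 0.00179 and 0.0209). The Mpc1 call of that step was lost without P1 replicate 2 or P1 replicate 4.

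Among 12 regulators, 4 rose and 1 fell from P12 to P28, a step where 15.5% of all genes rose and 15.4% fell. The nuclear receptor Nr4a3 rose by 1.75 ± 0.18, the adipogenic factor Cebpa by 1.61 ± 0.20 and the lipid-sensing receptor Ppard by 0.79 ± 0.15 (limma, adjusted p = 1.4e-05, 6.47e-05 and 0.00121). Pparg, the receptor that drives fat cell formation, rose by 0.51 ± 0.17 (adjusted p = 0.0399), to a P28 range of 5.66 to 6.07, and missed the threshold when 1 of 7 arrays was left out (P1 replicates 2 and 3, P12 replicates 1, 2 and 3, P28 replicates 1 and 3). It also missed it with the replicate block (adjusted p = 0.0506), with only P12 and P28 fitted (0.0582) and with the 3' minus 5' covariate (0.179). Ppargc1b fell by 0.62 ± 0.19 (adjusted p = 0.0252). That call was lost without P12 replicate 1, P12 replicate 4 or P28 replicate 1, and with the 3' minus 5' covariate (0.0814). Ppara differed by 0.03 ± 0.20 and Ppargc1a by 0.05 ± 0.30. Beside Car3, 4 of 9 other carbonic anhydrases rose and 0 fell, led by Car2 (3.34 ± 0.42), Car5b (2.54 ± 0.18) and Car12 (1.70 ± 0.24), with adjusted p = 6.71e-05, 5.05e-07 and 0.000157.

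**Figure D3:**
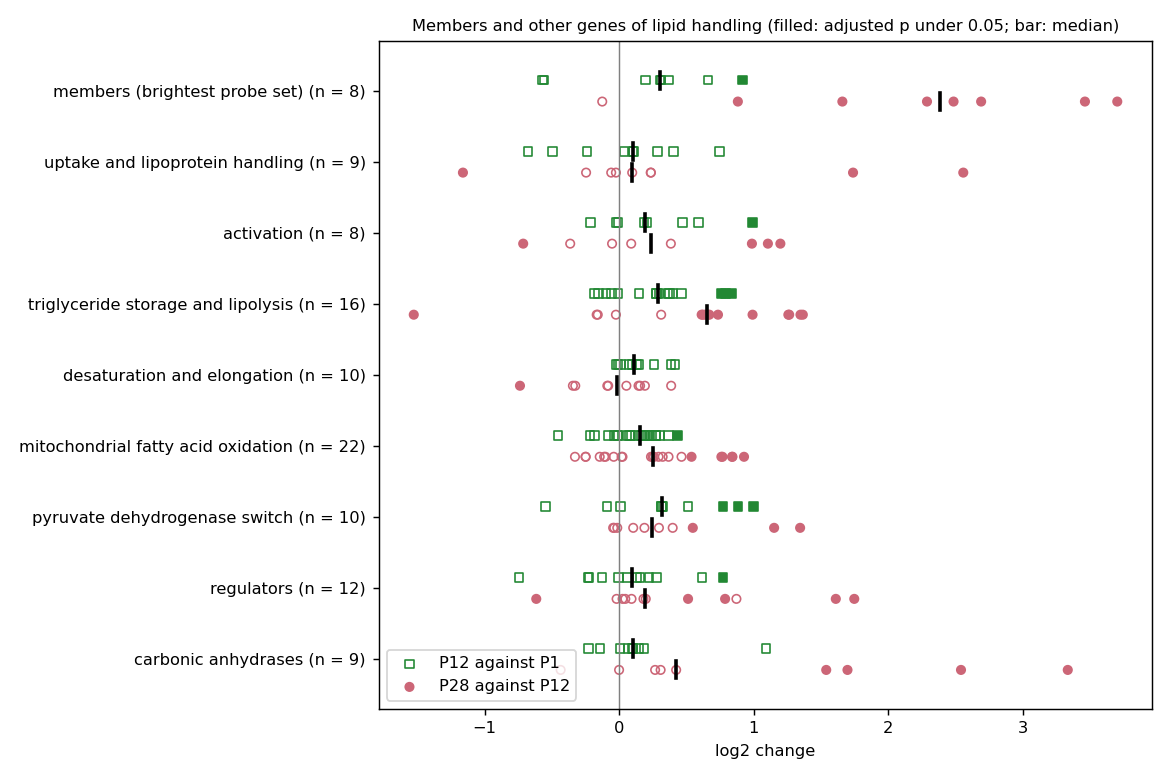
Log2 change (horizontal axis) of the 8 members, of the other genes of 7 lipid lists and of 9 carbonic anhydrases, from P1 to P12 (squares) and from P12 to P28 (circles), filled where the adjusted p was under 0.05, with black bars for medians. The member median of 2.39 from P12 to P28 lies to the right of the medians of all lists. Members and lists were chosen with earlier results of these data known.

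Markers of other cell types moved over the same step. In sorted bulk samples a change in the number of cells of a type and a change in RNA per cell cannot be told apart. Levels of a marker list are given as log2 of the summed linear values of its measured genes. Of 18 adult myofibre markers, 17 rose and 0 fell from P12 to P28, against 15.5% and 15.4% of all genes. Their summed level ran from 13.53 to 13.95 at P1, from 13.41 to 14.42 at P12 and from 15.87 to 16.40 at P28. The creatine kinase Ckm rose by 3.96 ± 0.34, the fast myosin Myh4 by 4.25 ± 0.44 and Myh7 by 3.09 ± 0.23 (limma, adjusted p = 2.32e-06, 1.15e-05 and 7.15e-07). Already from P1 to P12, 7 of the 18 rose and 0 fell, against 3.94% and 1.85% of all genes. The largest of these increases were Myh4 (3.32 ± 0.40), Pvalb (3.29 ± 0.27) and Myh1 (1.62 ± 0.17), at adjusted p = 0.000541, 2.1e-05 and 0.000211 (limma). Within replicates 1 and 2 alone Myh4 did not pass (adjusted p = 0.0861). P12 replicates 1 and 4 had the highest myofibre sums of their age, 14.17 and 14.42 against 13.45 and 13.41. These arrays were also the highest P12 arrays for Car3, Cd36 and Scd1 on their brightest probe sets. The endothelial sums, described below, were highest on these P12 arrays too, at 10.04 and 10.40 against 9.76 and 9.95. The other members were ordered differently at P12: Pdk4 and Angptl4 were highest on replicate 2, Fabp4 and Lpl on replicates 1 and 2, and Fabp3 on replicates 4 and 3. P28 replicate 2 had the highest myofibre sum of all, 16.40, and was the highest P28 array for Cd36, Fabp3, Fabp4 and Car3 and the lowest for Lpl, Scd1 and Pdk4.

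Of 9 white adipocyte markers other than members, Plin1 and Cfd had no probe set of their own. Of the 7 measured, Adipoq and Pparg rose and 0 fell from P12 to P28, against 15.5% and 15.4% of all genes. Their summed level ran from 7.98 to 8.11 at P1, from 7.84 to 7.97 at P12 and from 8.05 to 8.34 at P28. The brightest genes in this sum were Retn, Lipe and Pparg. Adipoq, Cidec, Lep and Adig were dim at every age and so add little to it. Adipoq, the fat cell hormone adiponectin, was dim, at 3.87, 3.07 and 4.54 at P1, P12 and P28. It fell by 0.80 ± 0.19 from P1 to P12 (limma, adjusted p = 0.0263) and rose by 1.47 ± 0.20 from P12 to P28 (adjusted p = 0.000116). Its P12 mean lay below the background level of 3.36 to 3.64, so these differences are not folds of a measured P12 level. The fall no longer passed without P1 replicate 3, P1 replicate 4, P12 replicate 1 or P12 replicate 4, or within replicates 1 and 2. Leptin (Lep) read 3.80, 3.82 and 3.80, and Cidec, a droplet protein of white fat, 4.00, 4.06 and 4.19, both dim at every age. Lipe, the hormone-sensitive lipase, differed by 0.28 ± 0.19 (adjusted p = 0.31). Retn went the other way, with means of 6.32, 5.98 and 5.69 at P1, P12 and P28. It did not pass from P12 to P28 (-0.29 ± 0.14, limma, adjusted p = 0.135) but fell from P1 to P28 (-0.63 ± 0.14, adjusted p = 0.00309). Adig, adipogenin, differed by 0.50 ± 0.19 (adjusted p = 0.0617), and passed with quantile normalization, with trend and robust eBayes, without P12 replicate 3 or without P28 replicate 3. The number of these markers that rose was 3 with quantile normalization or trend and robust eBayes. It was 1 with the replicate block, with only P12 and P28 fitted, with the 3' minus 5' covariate, without dim probe sets, or without P1 replicate 2, P1 replicate 3, P12 replicate 1, P12 replicate 2 or P28 replicate 1.

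Most endothelial and part of the macrophage markers rose as well, in a step where 15.5% of all genes rose and 15.4% fell. Of 10 endothelial markers, among them Gpihbp1 of the uptake list, 9 rose and 0 fell from P12 to P28, with sums of 9.43 to 10.18 at P1, 9.76 to 10.40 at P12 and 11.40 to 12.19 at P28. Pecam1 and Cdh5, adhesion proteins of endothelium, rose by 2.43 ± 0.28 and 2.58 ± 0.34 (limma, adjusted p = 2.92e-05 and 7.95e-05). P28 replicate 2 had the highest endothelial sum, 12.19, beside its highest Cd36 and Fabp4 values. The adipocyte sum was also highest on that array, at 8.34 against 8.06 and 8.05 on the other P28 arrays. Of 9 macrophage markers 5 rose and 0 fell, led by the lysozyme gene Lyz2 (4.04 ± 0.25, adjusted p = 1.65e-07). Their sums were 10.35 to 10.82 at P1, 9.97 to 10.20 at P12 and 11.58 to 12.45 at P28. Csf1r, Mrc1, Ptprc and Adgre1 did not pass (0.70, 0.93, 1.13 and 0.38, limma, adjusted p = 0.131, 0.0743, 0.0645 and 0.368). Csf1r and Mrc1 passed in some other fits, among them the replicate block (adjusted p = 0.0423 and 0.0401). Of 6 fibro-adipogenic markers 4 rose and 0 fell, among them decorin (Dcn, 2.39 ± 0.20, adjusted p = 1.68e-06), with sums of 12.67 to 13.34, 12.49 to 13.25 and 13.49 to 14.13. Of 9 satellite cell markers 3 rose and 0 fell, with sums of 12.71 to 13.23, 13.06 to 13.40 and 13.87 to 14.12. The part of any of these cell types in the member changes was not tested.

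**Figure D4:**
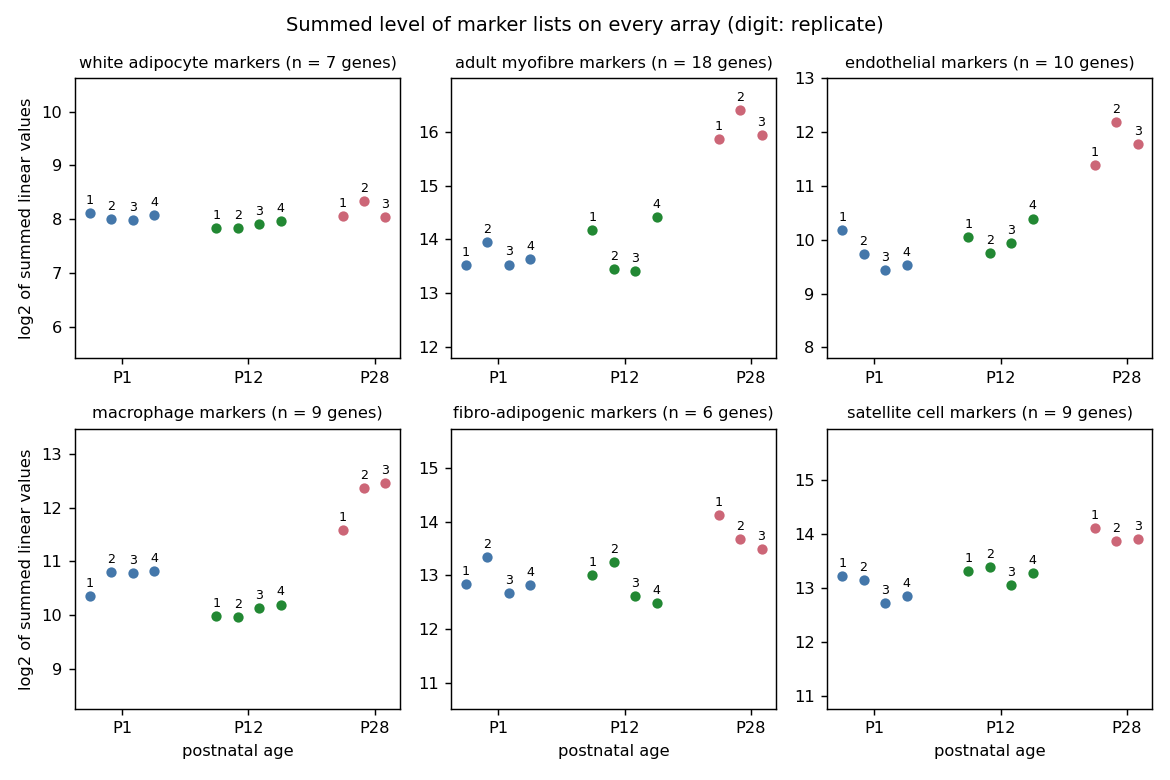
Log2 of the summed linear values (vertical axis) of 6 cell type marker lists on every array at P1, P12 and P28, with the replicate number at each point. The myofibre sums at P28 (15.87 to 16.40) and the endothelial sums (11.40 to 12.19) lie above all younger arrays. So do the macrophage (11.58 to 12.45), fibro-adipogenic (13.49 to 14.13) and satellite cell sums (13.87 to 14.12). The adipocyte sums at P28 (8.05 to 8.34) overlap those at P1 (7.98 to 8.11) and lie above those at P12 (7.84 to 7.97).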

How the data were processed

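GFP-positive muscle cells were measured on 11 Affymetrix Mouse430_2 arrays (P1 n = 4, P12 n = 4, P28 n = 3), grouped by title. The deposited values are the authors' log2 RMA values per probe set. The submitters' processing notes list the tools affy, RMA and Affymetrix Expression Console with no version, and whether all arrays were processed together is not given in the sources used here. No further normalization was applied. Of 45101 probe sets, 64 controls were left out. 34945 carried 1 gene symbol, 932 several and 9160 none. Arrays give no read depth, and their number limits the precision. 0 array pairs were identical.

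All 45037 probe sets were fitted with limma 3.58.1 in R 4.3.3 (group means, contrasts, eBayes, 8 residual and 5.82 prior degrees of freedom), two-sided, with Benjamini-Hochberg adjustment, and the fit was tested on simulated data. Tables and figures were made with Python 3.11.15. The members and lists were chosen with earlier results of these data known. In each list a gene was read from its probe set with the highest mean. Named are all members, up to 3 genes of a list with the largest change each way, markers with high means, and genes set beside a result. Plin2, Slc27a1, Cpt1a, Cpt2, Elovl1, Ppara and Ppargc1a were added after their values were seen. Alternatives were median centring, quantile normalization, filters on probe sets, other variance settings, a replicate block, the 3' to 5' covariate, sets of replicates and leaving out each array.

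Same-numbered P1 and P12 arrays, numbered by title, had correlated deviations from their age means (0.143, 0.207, 0.311 and 0.182), all over 0.1, the limit taken here for pairing. The values and calls given are from the fit without pairing, so those from P1 to P12 leave this correlation out of account. With the replicate number as a block, both Lpl probe sets also rose from P1 to P12. The block with the replicate number is an alternative, printed for every member call it changes and for part of the listed genes. With it Klf15 of the regulators also rose from P12 to P28 (0.77, limma, adjusted p = 0.042). From P1 to P12 it added increases of Lmf1 and Nr4a3 and a fall of Vldlr, and it ended the call of Etfa. Correlations between replicates 1 and 2 of these ages were as high (0.150 and 0.247), as were those between 3 and 4 (0.140 and 0.213). Same-numbered correlations with P28 were between -0.122 and 0.093.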

Additional observations from a re-analysis of the deposited data

Results flagged for a closer look

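Among 40 groups of 4 arrays (20 probe sets at P1 and at P12), 3 held an array far from the others by Dixon's criterion, and chance alone gives about 1 in 20. Fabp4 1417023_a_at read 9.69 on P12 replicate 4, where the other P12 arrays read 8.79 to 8.87. Scd1 1415964_at read 7.10 on P1 replicate 1, against 6.07 to 6.18 on the other P1 arrays. The dim Car3 probe set 1430584_s_at read 4.11 on P1 replicate 1, against 3.70 to 3.75.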

How the results depend on the processing

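No single member change reversed a call. From P1 to P12 the number of member probe sets that rose was 1. It was 2 with median centring, with trend and robust eBayes or with only these ages fitted, and 3 without dim probe sets, with array weights, with replicates 1 and 2 against 3 and 4 as a term or with the 3' to 5' covariate. It was 0 within replicates 1 and 2, 3 within replicates 3 and 4, and 0 to 3 without 1 array. With the replicate block it was 3. The added increases were Lpl, and within replicates 3 and 4 or without P1 replicate 1 also Fabp4 1425809_at. From P12 to P28, 12 rose and 1 fell, and with 1 probe set per gene 7 rose and 0 fell of 8. The replicate block, or leaving out P12 replicate 4 or P28 replicate 2, added an increase of Lpl 1431056_a_at. With the 3' to 5' covariate 0 fell. From P1 to P28, 14 rose and 0 fell, with 7 risen of 8 genes, while 1 fell with the replicate block (Angptl4 1453410_at) and 0 to 1 fell without 1 array. The replicate block, median centring, array weights, the covariate, or leaving out P1 replicate 1 or P28 replicate 2 added an increase of Lpl 1415904_at. Of the single member values, 436 kept their call from P1 to P12, 20 gained it and 6 lost it, 398, 3 and 1 did so from P12 to P28, and 390, 9 and 3 from P1 to P28.

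Over all probe sets the split of calls from P12 to P28 was 6068 higher and 7161 lower, and 4946 and 3751 with the 3' to 5' covariate. From P1 to P28 that covariate gave 6801 and 4362 in place of 7917 and 7836. From P1 to P12 a further quantile normalization gave 1065 and 990 in place of 1464 and 717. Of the mitochondrial oxidation genes 11 rose and 1 fell from P1 to P28, against 19.9% and 16.3% of all genes. With quantile normalization 6 rose and 3 fell (Hadh and Eci2 added), and with the covariate 7 rose and 0 fell. The cause was not tested. P28 has 3 arrays, and its age, muscles and sample naming coincide.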
